A study of Mus musculus with 15 samples.

Results

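The genes described here are the axon guidance ligands and receptors of mouse cortex: semaphorins of classes 3 to 7 and their plexin receptors, ephrins and Eph receptors, Slits and Robo receptors, and netrins with the Unc5 and Dcc receptors. They were chosen by symbol from a cortex RNA-seq table of 23235 genes, which gave 69 members, of which 35 encode ligands and 32 encode receptors. The symbols *Unc50* and *Unc5cl* also begin with Unc5, but neither is counted here as a netrin receptor, and they are kept apart from both roles. All 69 matched the annotation of the mm9 assembly.

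RNA came from the cortex of adult mice at 2 times of day, Zt +6 (light) and Zt +16 (dark). WT mice (C57BL/6J) were compared with *Snord116del* (+/-) mice (B6(Cg)-Snord116tm1.1Uta/J), which are littermates that inherited from the father a deletion of the *Snord116* snoRNA cluster, an imprinted locus whose maternal copy is silent. There were 3 WT and 2 *Snord116del* mice at Zt +6, and 2 of each genotype at Zt +16. The table gives 1 FPKM value (fragments scaled to transcript length and library size) per group and gene, as the authors' Cuffdiff estimate. The spread between mice thus cannot be seen in these values, and no test could be run on them. The authors' q-values were not used. The sequencing depth behind each value is not in the table. GEO's labels name an earlier version of the table for 1 of the WT and both *Snord116del* mice at Zt +6. Peak lists of chromatin isolation by RNA purification (ChIRP) from adult brain, 5 in all, were also searched: replicates 1 and 2 of pulldown with oligos against *116HG*, the spliced host transcript of *Snord116*, in WT, and 1 list each for *116HG* oligos in *Snord116del*, non-specific control (NSC) oligos in WT and NSC oligos in *Snord116del*.

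Axon guidance ligands act on growing axons by attraction or repulsion. Semaphorins signal through plexins, ephrins through Eph receptor tyrosine kinases, Slits through Robo receptors, and netrins attract through Dcc or repel through Unc5 receptors. The receptors and many of the ligands are anchored in the membrane, and for such ligands contact between cells can carry the signal. In the adult cortex the same proteins remain in neurons, glia and vessels, where they are known for roles at dendritic spines and synapses.

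*Snord116* itself is listed at 0 FPKM in every group and so checks nothing. The level of *Ipw*, a neighbouring transcript, was 21.6 FPKM in WT Zt +6, 3.40 in *Snord116del* Zt +6, 3.17 in WT Zt +16 and 1.82 in *Snord116del* Zt +16. Cortical markers were present in every group, with a summed level of 5 genes between 26.3 and 62.1 FPKM. Choroid plexus markers were present too, with a summed level of 203 and 186 FPKM at Zt +6 and 26.1 and 31.0 at Zt +16 in WT and *Snord116del*, nearly all of it *Ttr*. Levels over all 10297 tested genes were not centred alike: their median was 3.17 FPKM in WT Zt +6, 5.63 in *Snord116del* Zt +6, 2.90 in WT Zt +16 and 4.00 in *Snord116del* Zt +16.

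Most of the 69 genes were expressed at a low level. A mean of at least 1 FPKM over the 4 groups was required for a gene to be compared, and 44 members passed while 25 did not. Of the 44, 12 had a mean under 1 FPKM over the 3 groups other than *Snord116del* Zt +6, so they passed only through their level in that group. These were *Efna2*, *Efna3*, *Robo1*, *Robo2*, *Robo3*, *Sema4d*, *Sema5a*, *Sema6a*, *Slit2*, *Slit3*, *Unc5c* and *Unc5d*. *Robo4* (0.918), *Efnb1* (0.939) and *Dcc* (0.961) lay just under the limit and *Efna2* (1.03), *Slit2* (1.13) and *Efna3* (1.16) just above it. The 25 members under the limit had medians of 0.462 FPKM in WT Zt +6, 0.902 in *Snord116del* Zt +6, 0.312 in WT Zt +16 and 0.367 in *Snord116del* Zt +16, and 12 of them reached 1 FPKM in at least 1 group. None was listed at 0. These genes include 6 of the 7 class 3 semaphorins, 3 of the 4 netrins, and *Dcc*, the netrin receptor for attraction, which was at 0.699 FPKM in WT Zt +6, 2.51 in *Snord116del* Zt +6, 0.312 in WT Zt +16 and 0.323 in *Snord116del* Zt +16.

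Most tested members had their highest value in the same group and their lowest value in the same other group. The highest value was that of *Snord116del* Zt +6 in 40 of 44 members, and the lowest that of WT Zt +16 in 35. Over all tested genes the shares were 57.7% and 50.3%. Without the 12 members that passed only through *Snord116del* Zt +6, the highest value was in that group in 28 of 32 and the lowest in WT Zt +16 in 24, beside 52.2% and 45.5% of all genes that passed on the other 3 groups. The exceptions at the top were *Sema6b*, *Sema4f*, *Ephb1* and *Unc50*, which were highest in *Snord116del* Zt +16. The sum over all 69 genes was 134 FPKM in WT Zt +6, 299 in *Snord116del* Zt +6, 101 in WT Zt +16 and 156 in *Snord116del* Zt +16.

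**Figure D1:**
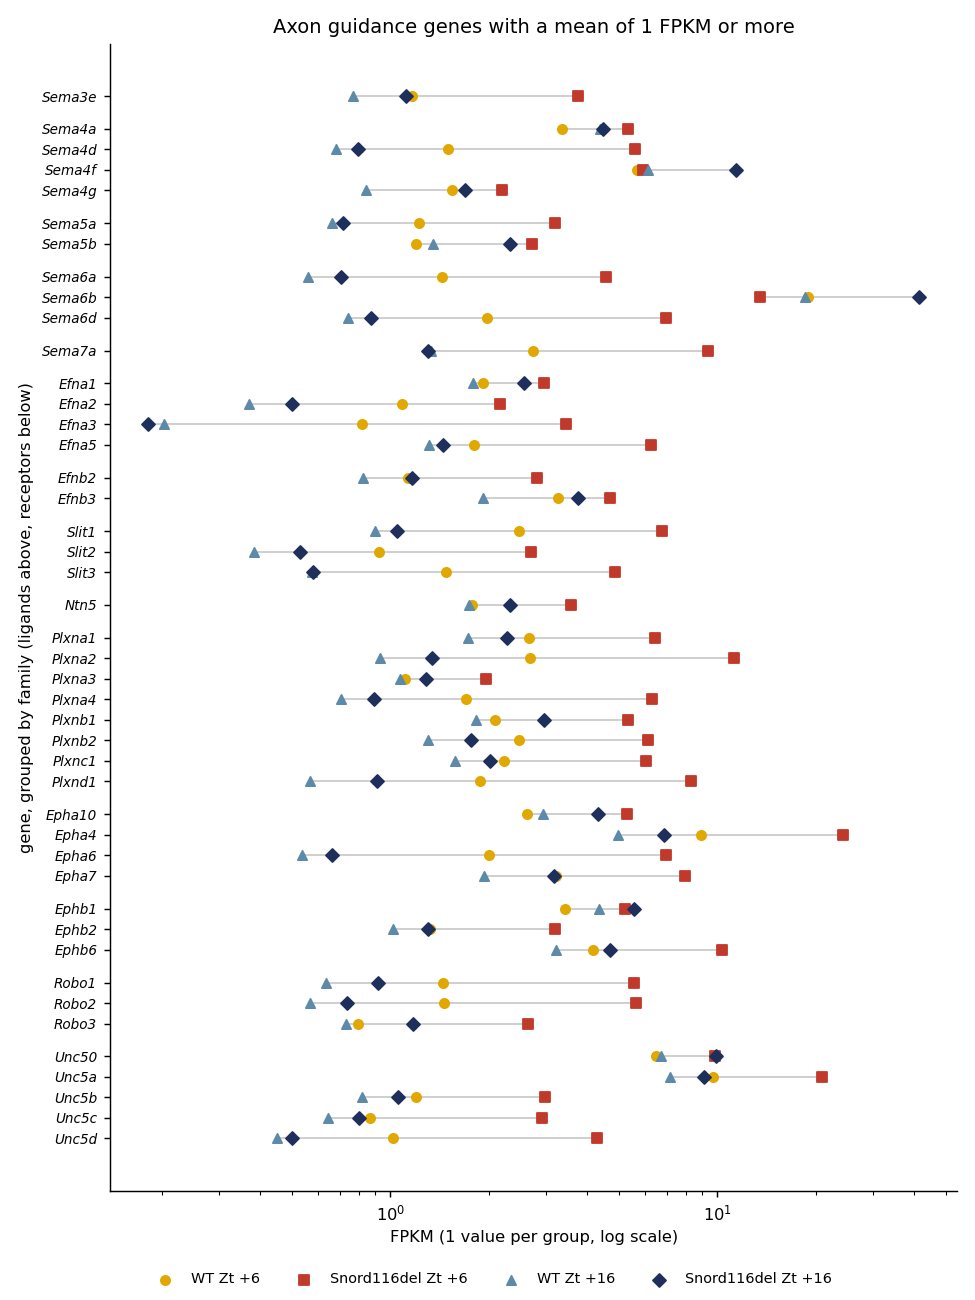
Level of each of the 44 tested genes (rows, grouped by family, with *Unc50* beside the Unc5 receptors) in FPKM on a log scale, with 1 point per group as the authors' value and a grey line over the range. The *Snord116del* Zt +6 point lies farthest right in 40 rows and the WT Zt +16 point farthest left in 35, while *Sema6b* reaches 41.4 FPKM in *Snord116del* Zt +16.

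The first comparison asked how these genes differed between the genotypes in the light phase. At Zt +6, 35 of the 44 tested members were at least 1.5-fold higher in *Snord116del* than in WT on the FPKM + 1 scale. None was that much lower. All 12 members that passed the filter only through *Snord116del* Zt +6 were among the 35. The background was high: by the same rule 49.3% of all tested genes were higher and 7.62% lower. The members' median difference was 1.04 on the log2 scale (2.05-fold), beside 0.57 (1.48-fold) over all tested genes. Of the 21 tested ligands 15 were higher and of the 22 tested receptors 20. These became 7 ligands and 7 receptors with the groups scaled to the same median, and 4 and 1 relative to the length trend described below. The 9 that did not pass the fold rule were *Efna1*, *Efnb3*, *Ephb1*, *Plxna3*, *Sema4a*, *Sema4f*, *Sema4g*, *Sema6b* and *Unc50*. With the 4 groups scaled to the same median, 14 members were higher and 2 lower (*Sema4f* and *Sema6b*), beside 15.0% and 24.4% of all tested genes. Of these 14, *Efna3*, *Robo1*, *Robo2*, *Sema4d*, *Sema6a*, *Slit3* and *Unc5d* passed the filter only through *Snord116del* Zt +6, so the filter favoured their call. Marker lists of other cells and regions did not all move alike at Zt +6. Higher were 3 of 6 neuron markers, 3 of 5 of cortex, 2 of 5 of oligodendrocytes, 4 of 5 of microglia and 1 of 2 tested of choroid plexus. That choroid plexus marker, *Kcnj13*, passed the filter only through *Snord116del* Zt +6. All 5 astrocyte markers were higher at Zt +6, with a summed level of 33.3 FPKM (WT) and 98.5 FPKM (*Snord116del*), beside 14.8 and 19.1 at Zt +16. So were all 4 tested of 5 striatal markers, which summed to 20.9 and 65.6 FPKM at Zt +6 and to 17.4 and 31.8 at Zt +16. No astrocyte or striatal marker was at 0, and the part of these cell types and regions in the members' differences was not tested.

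Plexins held the pair of largest differences. *Plxna2* (mm9, chr1:196446023-196643063, + strand), a receptor for class 6 semaphorins and, with neuropilins, for class 3 semaphorins, was at 2.67 FPKM (WT) and 11.2 FPKM (*Snord116del*) at Zt +6, and at 0.928 and 1.34 FPKM at Zt +16. Its level in *Snord116del* Zt +6 stood far above the other 3 groups, a 3.34-fold difference from WT on the FPKM + 1 scale. *Plxnd1*, the receptor of *Sema3e*, was at 1.88 FPKM (WT) and 8.32 FPKM (*Snord116del*) at Zt +6, and at 0.569 and 0.907 FPKM at Zt +16, with a 3.23-fold difference at Zt +6. It is also a gene of blood vessels, and 4 of the 5 endothelial markers passed the filter and all 4 were higher at Zt +6, with a summed level over all 5 of 5.06 FPKM (WT) and 15.9 FPKM (*Snord116del*) at Zt +6, 2.68 and 2.99 at Zt +16, and no marker at 0. Of the 4, *Pecam1*, *Flt1* and *Cdh5* were under 1 FPKM in each group other than *Snord116del* Zt +6. They passed only through that group, so the filter favoured a high value there. The part of the endothelial markers in the difference of *Plxnd1* was not tested, and fewer cells of a type and less RNA per cell cannot be told apart in these bulk samples.

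Of the 8 tested plexins, 7 were higher at Zt +6. With the groups scaled to the same median 3 were, and relative to the length trend none was higher and 1 was lower. *Plxna4* was at 1.70 FPKM (WT) and 6.31 FPKM (*Snord116del*) at Zt +6, and at 0.707 and 0.889 FPKM at Zt +16, a 2.71-fold difference in the light phase. The most abundant B-type plexin, *Plxnb1*, a receptor of class 4 semaphorins, was at 2.10 and 5.35 FPKM at Zt +6 and at 1.83 and 2.96 at Zt +16. *Plxnc1*, the receptor of *Sema7a*, was at 2.23 and 6.05 FPKM at Zt +6 and at 1.58 and 2.01 at Zt +16. The differences at Zt +6 were 2.05-fold and 2.18-fold. *Plxna3* was at 1.10 and 1.96 FPKM at Zt +6 and did not pass the fold rule.

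Among the semaphorins, the membrane-linked *Sema7a* had the largest difference at Zt +6. It was at 2.72 FPKM (WT) and 9.39 FPKM (*Snord116del*) at Zt +6, a 2.79-fold difference, and at 1.34 and 1.30 FPKM at Zt +16. The 2 genotypes were thus close to each other in the dark and apart in the light. *Sema6d*, a transmembrane semaphorin, followed with 1.98 and 6.96 FPKM at Zt +6 (2.67-fold) and 0.740 and 0.870 at Zt +16. The secreted *Sema3e* was the class 3 member with the highest mean and the one that passed the filter, at 1.17 and 3.75 FPKM at Zt +6 and 0.770 and 1.12 at Zt +16. *Sema5b* was at 1.19 and 2.72 FPKM at Zt +6 and at 1.35 and 2.33 at Zt +16. Class 4 was the family with the fewest higher genes for its size, 1 of 4 tested, with a median log2 difference of 0.43, which changed sign to -0.17 with the groups scaled to the same median and to -0.22 after quantile normalization.

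*Sema6b* (mm9, chr17:56262508-56279766, - strand), a transmembrane ligand of A-type plexins, was the most abundant member by mean level and the only tested one with a lower value in *Snord116del* at Zt +6. It was at 19.0 FPKM in WT Zt +6, 13.6 in *Snord116del* Zt +6, 18.6 in WT Zt +16 and 41.4 in *Snord116del* Zt +16. The WT values at the 2 times were close, and the *Snord116del* values lay on either side of them. The 0.729-fold difference at Zt +6 did not reach the 1.5-fold limit. *Sema4f* was at 5.70, 5.93, 6.16 and 11.4 FPKM in the same order of groups, so it stood apart from the others in *Snord116del* Zt +16 alone.

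The Slit receptors *Robo1* and *Robo2*, both genes of forebrain neurons, differed by nearly the same factor. *Robo2* was at 1.46 FPKM (WT) and 5.63 FPKM (*Snord116del*) at Zt +6 (2.70-fold) and at 0.569 and 0.738 at Zt +16. *Robo1* was at 1.44 and 5.55 FPKM at Zt +6 (2.68-fold) and at 0.634 and 0.918 at Zt +16, so the pair had nearly equal levels in each group. All 3 tested Robo genes and all 3 Slit genes were higher at Zt +6. Of these, *Robo1*, *Robo2*, *Robo3*, *Slit2* and *Slit3* passed the filter only through *Snord116del* Zt +6, so the filter favoured a high value there. With the groups scaled to the same median 2 Robo genes and 1 Slit gene were, and relative to the length trend none. *Slit1*, the most abundant of the Slits, was at 2.47 and 6.76 FPKM at Zt +6 and at 0.899 and 1.05 at Zt +16.

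In the Eph system, all 4 tested A-type receptors and 2 of 3 tested B-type receptors were higher at Zt +6, as were 3 of 4 tested A-type ephrins and 1 of 2 tested B-type ephrins. With the groups scaled to the same median these counts were 1 and 0 for the receptors and 2 and 0 for the ephrins, and relative to the length trend they were again 1, 0, 2 and 0, where the B-type receptors' median was -0.40. The B-type ephrins' median log2 difference of 0.63 became -0.02 after quantile normalization. *Epha4*, a receptor that binds ephrins of both types and is abundant in neurons, was at 8.94 FPKM in WT Zt +6, 24.2 in *Snord116del* Zt +6, 4.97 in WT Zt +16 and 6.88 in *Snord116del* Zt +16. This was the highest level of any member in the light phase in *Snord116del*, and a 2.54-fold difference from WT. *Ephb6*, which lacks kinase activity, was at 4.16, 10.4, 3.20 and 4.71 FPKM in the same order. The glycolipid-anchored ligand *Efna5* was at 1.80, 6.29, 1.31 and 1.45 FPKM, and the transmembrane ligand *Efnb3* at 3.26, 4.70, 1.92 and 3.76 FPKM.

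Among the netrin receptors, *Unc5a* was by far the most abundant, at 9.71 FPKM in WT Zt +6, 20.9 in *Snord116del* Zt +6, 7.15 in WT Zt +16 and 9.10 in *Snord116del* Zt +16. All 4 Unc5 receptors that were tested, *Unc5a* to *Unc5d*, were higher at Zt +6 in *Snord116del*. *Unc5c* and *Unc5d* passed the filter only through that group. With the groups scaled to the same median 1 of the 4 was higher. Relative to the length trend none was, and *Unc5b* (-0.19) and *Unc5c* (-0.21) lay below it. The netrins themselves were low: *Ntn5* alone passed the filter, at 1.78, 3.58, 1.74 and 2.33 FPKM in the same order of groups, and *Ntn1*, the best known ligand of these receptors, was at 0.553, 0.974, 0.580 and 0.689 FPKM. *Unc50*, which is known as a protein of the Golgi membrane, was at 6.51, 9.83, 6.74 and 9.89 FPKM, higher in *Snord116del* at both times by less than 1.5-fold.

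The second comparison asked whether the genotypes differed in the same way in the dark phase. At Zt +16 the genotypes were much closer. Of the 44 tested members 3 were at least 1.5-fold higher in *Snord116del* and none was lower, beside a background of 19.0% higher and 0.204% lower. The 3 were *Sema6b* (2.17-fold), *Sema4f* (1.73-fold) and *Efnb3* (1.63-fold). All are transmembrane ligands, and none of the 3 had passed the fold rule at Zt +6, so no member was called higher at both times. The median log2 difference was 0.24, beside 0.35 over all tested genes. With the groups scaled to the same median it was -0.04, and *Sema6b* alone stayed past the rule; after quantile normalization it was -0.01 and no member passed. In 40 of the 44 members the difference between genotypes was larger at Zt +6 than at Zt +16. This difference between the times was not tested, and each time rests on its own 2 group values.

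**Figure D2:**
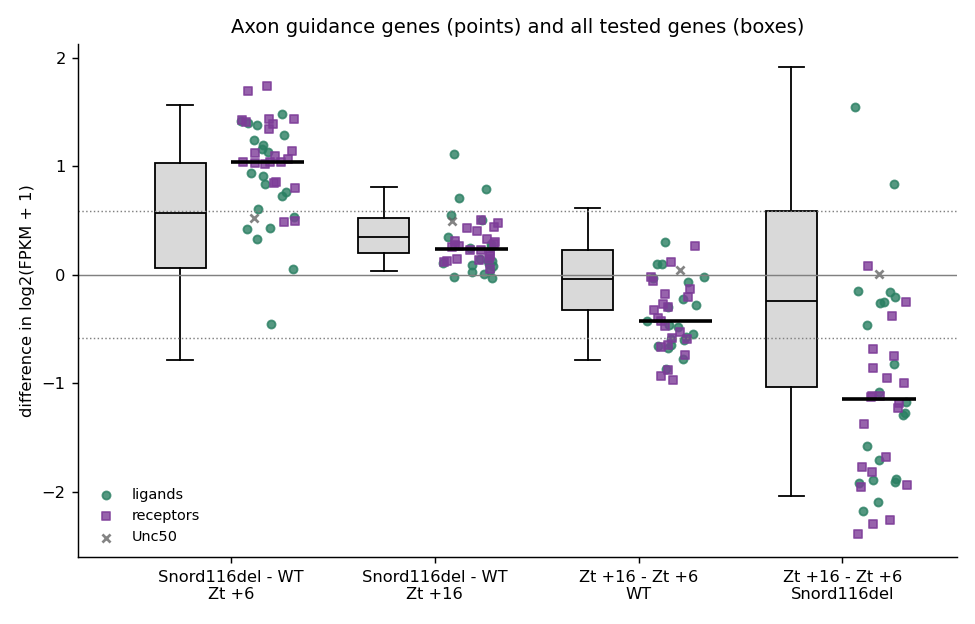
Difference in log2(FPKM + 1) of the 44 tested genes in the 4 comparisons (points; black bars, their medians) beside all 10297 tested genes (boxes, median and quartiles; whiskers, 5th and 95th percentiles). Dotted lines mark 1.5-fold; the members' medians of 1.04, 0.24, -0.42 and -1.14 lie above, below, below and below those of all tested genes.

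The third comparison asked how the genes differed between light and dark in WT cortex. None of the 44 was at least 1.5-fold higher at Zt +16 and 13 were lower, beside 5.71% and 10.3% of all tested genes. The median log2 difference was -0.42, beside -0.04 over all tested genes, and 38 of the 44 values were below 0. At a 2-fold limit no member was lower. The 13 were 6 ligands (*Efna2*, *Sema6a*, *Sema6d*, *Sema7a*, *Slit1* and *Slit3*) and 7 receptors (*Epha4*, *Epha6*, *Plxna2*, *Plxna4*, *Plxnb2*, *Plxnd1* and *Robo2*). This comparison shares the WT Zt +6 value with the first one. The lowest difference was that of *Epha6*, a neuronal Eph receptor, at 2.00 FPKM in WT Zt +6, 6.97 in *Snord116del* Zt +6, 0.538 in WT Zt +16 and 0.664 in *Snord116del* Zt +16. It fell by 0.96 on the log2 scale in WT, followed by *Plxna2* (0.93), *Plxnd1* (0.88), *Slit1* (0.87) and *Sema6d* (0.78), and all 5 values at Zt +16 were under 1 FPKM. Astrocyte markers moved the same way, with 4 of 5 lower and a summed level of 33.3 FPKM in WT Zt +6 and 14.8 in WT Zt +16. The choroid plexus sum given above fell too. Lower in the other lists were 2 of 6 neuron markers, 2 of 5 of cortex, 1 of 5 of oligodendrocytes and 1 of 4 tested of endothelium. Among oligodendrocyte markers 1 was higher, and no striatal or microglia marker was called. The part of any list in these differences was not tested.

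In *Snord116del* cortex the same contrast was wider. At Zt +16, 2 of the 44 tested members were higher than at Zt +6 and 32 were lower, beside a background of 25.0% higher and 39.1% lower. The median log2 difference was -1.14, beside -0.24 over all tested genes. *Plxna2* fell by 2.39 on the log2 scale, *Plxnd1* by 2.29, *Epha6* by 2.26, *Sema7a* by 2.17 and *Sema6d* by 2.09. The 2 higher genes were *Sema6b* (2.91-fold) and *Sema4f* (1.78-fold). Of the 22 tested receptors 19 were lower and none higher, and of the 21 tested ligands 13 were lower and 2 higher. This comparison uses the *Snord116del* Zt +6 value that also carries the first one. The 12 members that passed the filter only through that value were all among the 32 lower. The astrocyte markers fell in 4 of 5 and the striatal markers in 3 of the 4 tested, with the sums given above. All 4 tested endothelial and both tested choroid plexus markers were lower too. Of these, *Pecam1*, *Flt1*, *Cdh5* and *Kcnj13* passed the filter only through *Snord116del* Zt +6, so the filter favoured a fall from it. Fewer were lower in the lists of neurons (2 of 6), cortex (2 of 5) and microglia (1 of 5). Among oligodendrocyte markers 3 of 5 were higher and 2 lower. The share of all tested genes that were lower was the 39.1% given above, and the part of any list was not tested here either.

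Other genes of the pathway were taken from lists. Of 17 coreceptors and related adhesion molecules, all tested, 16 were higher at Zt +6 in *Snord116del*, none passed at Zt +16, 6 were lower in the dark in WT and 16 in *Snord116del*. The backgrounds given above were 49.3%, 19.0%, 10.3% and 39.1%, and the list's median transcript length was 5907 bases, beside 3085 over all tested genes. *Rgmb*, *Flrt3*, *Ntng1* and *Nrp2* passed the filter only through *Snord116del* Zt +6, so the filter favoured a high value there. The largest differences were those of *Rgmb*, a ligand of neogenin, at 1.16, 6.85, 0.350 and 0.478 FPKM, *Nrcam*, an adhesion molecule of axons, at 10.6, 38.8, 5.55 and 7.39 FPKM, and *Flrt2*, a ligand of Unc5 receptors, at 1.71, 7.79, 0.960 and 1.68 FPKM, each in the order WT Zt +6, *Snord116del* Zt +6, WT Zt +16 and *Snord116del* Zt +16. *Nrp2*, the one that did not pass at Zt +6, was at 1.06, 1.77, 0.699 and 0.832 FPKM.

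Cytoplasmic effectors, which carry guidance signals to the cytoskeleton, were less uniform. Of 38 tested, 28 were higher and 2 lower at Zt +6 in *Snord116del*, against the background of 49.3% and 7.62%, with a median transcript length of 4335 bases. Among the 28, *Rock1*, *Dpysl3* and *Arhgef11* passed the filter only through *Snord116del* Zt +6. *Rock2*, a kinase below RhoA, was at 3.85 and 16.1 FPKM at Zt +6, *Trio*, an exchange factor, at 3.57 and 14.2, and *Mical3*, of the MICAL family of actin-regulating oxidases, at 2.34 and 10.00. The 2 lower genes were *Cfl1*, the actin-severing protein cofilin, at 502 FPKM (WT) and 214 FPKM (*Snord116del*) at Zt +6 but 713 and 1321 at Zt +16, and *Gap43*, a growth cone protein, at 61.6 and 36.8 at Zt +6 and 65.2 and 97.0 at Zt +16. *Vasp* was at 1.93 and 1.12 FPKM at Zt +6. At Zt +16, *Cfl1*, *Cdk5*, *Limk1* and *Dpysl4* were higher in *Snord116del* and none was lower, a smaller share than the 19.0% of all tested genes. Like *Sema6b*, *Cfl1* and *Gap43* were lowest in *Snord116del* Zt +6 and highest in *Snord116del* Zt +16.

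Transcript length moved with every one of these differences. Over the 10165 tested genes with an annotated transcript, the median log2 difference at Zt +6 went from -0.25 for transcripts under 1500 bases to 1.34 for those of 8000 bases or more, with Spearman's rho of 0.628 across genes. The tested members are long, with a median of 5450 bases beside 3085 over all tested genes. Among the 44 members rho was 0.406, from 1414 bases in *Unc50* to 12580 in *Plxna4*. Genes share their libraries, so these correlations are descriptions across genes only. The trend had the opposite sign at Zt +16 (rho = -0.378), and it was -0.486 in the WT contrast of the times and -0.617 in that of *Snord116del*.

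Set against tested genes of the same transcript length, the members' median log2 difference at Zt +6 was 0.05, with 25 members above the trend and 19 below. By this measure 5 members were at least 1.5-fold above the trend: *Efna3*, *Sema7a*, *Epha6*, *Ntn5* and *Efna5*. This share was not above the background, which was 12.6% of tested genes at least 1.5-fold above the trend and 13.5% as far below. The largest distance above it was that of *Efna3* (0.89), a glycolipid-anchored ephrin at 0.818, 3.44, 0.204 and 0.182 FPKM in the 4 groups as ordered above, and *Sema7a* lay 0.87 above. All 4 tested A-type ephrins lay above the trend, *Efna1* by 0.33, *Efna2* by 0.27 and *Efna5* by 0.61. Of these, *Efna2* and *Efna3* passed the filter only through *Snord116del* Zt +6, with a mean over the other 3 groups of 0.650 and 0.401 FPKM. Below it by at least 1.5-fold were *Sema6b* (-1.19), *Sema4f* (-0.73) and *Plxna3* (-0.64). *Plxna2*, the largest difference before, lay 0.39 above the trend, and *Plxnb1* (-0.20), *Plxnc1* (-0.02) and *Sema5b* (-0.12) lay below it.

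In the other comparisons the members' medians relative to the trend were -0.03 at Zt +16, -0.18 between the times in WT and -0.17 between the times in *Snord116del*. In WT 4 members stayed 1.5-fold lower in the dark relative to the trend, *Efna2*, *Epha6*, *Sema7a* and *Slit1*. The background of this rule in WT was 6.67% of tested genes. In *Snord116del* 7 were at least 1.5-fold above the trend and 14 at least 1.5-fold below it, beside 24.8% and 24.8% of tested genes. *Sema6b* was 2.04 above the trend there, the farthest of all members on the higher side, and *Efna3* was 1.96 below it.

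**Figure D3:**
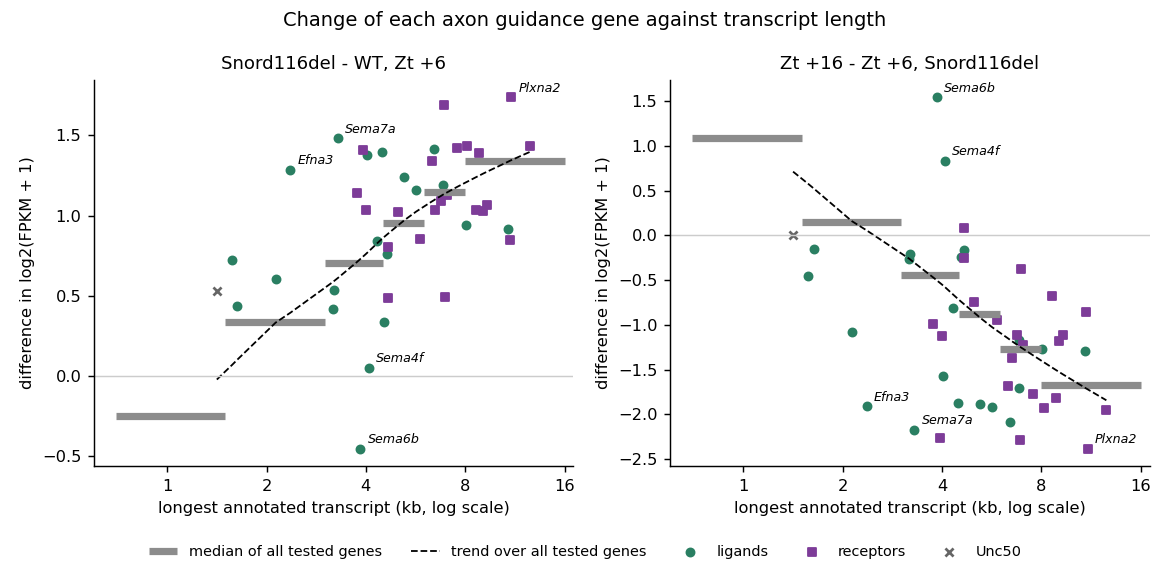
Difference in log2(FPKM + 1) of the 44 tested genes (points) against the longest annotated transcript in kb on a log scale, for *Snord116del* against WT at Zt +6 (left) and Zt +16 against Zt +6 in *Snord116del* (right). Grey bars are medians of all tested genes in 6 length classes and the dashed line is the trend over all tested genes. On the left 5 members lie at least 1.5-fold above it and 3 below, and on the right 7 and 14. *Sema6b* is 1.19 below it on the left and 2.04 above it on the right.

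The ChIRP lists were searched for peaks inside a member or within 2 kb of it. A peak of WT *116HG* replicate 1 was counted as replicated when a peak of replicate 2 lay within 10 kb. Such peaks were at 12 of the 69 genes: *Efna4*, *Efna5*, *Epha3*, *Epha6*, *Epha10*, *Plxna2*, *Plxnc1*, *Robo2*, *Sema3d*, *Sema3e*, *Slit2* and *Slit3*. Of the 44 tested members 9 held one (20.5%), beside 18.1% of all tested genes. The members are long genes, with a median of 80.7 kb beside 23.3 kb, and the share of tested genes with a replicated peak went from 12.0% under 20 kb to 54.9% over 400 kb. Of the 8 tested members over 400 kb, 3 held one.

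The replicates overlapped directly at 5 genes, in 7 peaks of replicate 1. All 5 were tested members, 11.4% of the 44, beside 4.58% of all tested genes, a comparison that was not adjusted for gene length. One of these lay in a UTR exon of *Plxna2*, and the other 6 lay in introns of *Efna5*, *Epha10*, *Epha6* (3 peaks) and *Sema3e*. The 6 intron sites are printed because both pulldowns gave a peak there at the same bases. The site in the *Plxna2* exon, 220 bases at chr1:196640190-196640409, is not printed, and its longest run of A or T was 4 bases. A control list also covered 1 of the 6: a WT NSC peak at chr17:63152465-63152614, 44.0-fold over input, spanned the whole *Efna5* site. Each is the stretch covered by both peaks, 5′ to 3′ on the + strand of mm9, with the longest run of A or T in capitals, and starts read from the peak files as 0-based, so that a position may be off by 1 base.
*Efna5*, chr17:63152551-63152608: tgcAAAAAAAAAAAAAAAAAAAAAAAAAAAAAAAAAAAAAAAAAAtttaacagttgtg
*Epha10*, chr4:124588967-124589027: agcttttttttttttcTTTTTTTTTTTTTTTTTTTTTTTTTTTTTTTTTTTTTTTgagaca
*Epha6*, chr16:60237193-60237258: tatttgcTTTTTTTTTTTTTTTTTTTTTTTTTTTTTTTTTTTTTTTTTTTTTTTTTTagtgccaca
*Epha6*, chr16:60393174-60393242: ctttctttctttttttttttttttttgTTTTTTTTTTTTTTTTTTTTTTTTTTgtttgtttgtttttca
*Epha6*, chr16:60549221-60549283: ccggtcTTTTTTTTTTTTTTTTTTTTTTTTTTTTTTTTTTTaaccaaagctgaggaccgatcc
*Sema3e*, chr5:14027881-14027933: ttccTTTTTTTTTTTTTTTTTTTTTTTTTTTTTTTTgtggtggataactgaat

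Each of the 6 sites held a run of A or T, 26 to 50 bases long. Runs of at least 12 A or T were present in 47 of the 460 replicate 1 peaks at the 69 genes (10.2%), in 16 of the 32 replicate 2 peaks (50%), in all 7 replicate 1 peaks that overlapped replicate 2 and in 6 of the 7 replicate 2 peaks that overlapped replicate 1. These counts use whole peaks, and the bases covered by both replicates in *Plxna2* held no run that long. Genome-wide the shares were 12.6% of replicate 1 peaks, 42.4% of replicate 2 peaks and 88.2% of the replicate 1 peaks that overlapped replicate 2. In the NSC list of WT 3 of the 4 peaks at members held such a run, and in the *Snord116del* lists none of 9 (*116HG* oligos) and none of 26 (NSC oligos) did. Genome-wide these shares were 9.89%, 1.26% and 2.12%.

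The 2 WT *116HG* lists lay in different parts of these genes. Of the 460 replicate 1 peaks, 206 were in coding exons, 167 in UTR exons, 65 in introns and 22 in the flanks. Of the 32 replicate 2 peaks, 29 were in introns, 2 in UTR exons and 1 in a flank. *Plxna2* held 36 replicate 1 peaks, and 14 of them were counted as replicated through a single replicate 2 peak. Without the requirement of a second replicate, replicate 1 had a peak at 60 of the 69 genes and at all 44 tested ones, beside 93.6% of all tested genes.

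**Figure D4:**
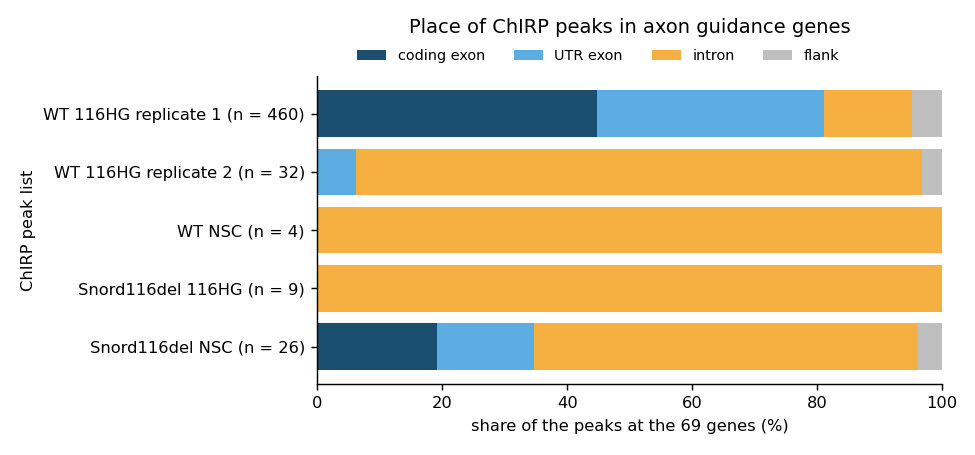
Share of the ChIRP peaks at the 69 genes (horizontal bars, in percent of each list's peaks, with the number of peaks in brackets) that lie in coding exons, UTR exons, introns or the 2 kb flanks. Replicate 1 of WT *116HG* has 206 and 167 of its 460 peaks in coding and UTR exons, while 29 of the 32 peaks of replicate 2 are in introns.

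Control lists had peaks at these genes too. WT NSC had a peak at 4 members, *Snord116del* *116HG* at 8 and *Snord116del* NSC at 18. Among the 44 tested members the shares were 4.55%, 13.6% and 31.8% (14 genes), beside 2.53%, 2.86% and 10.6% of all tested genes, and none was adjusted for gene length. Both *Snord116del* lists had overlapping peaks at 4 members, in introns of *Epha5* (chr5:84807741-84807897), *Epha6* (chr16:59703948-59704497), *Unc5c* (chr3:141429088-141429317) and *Unc5d* (chr8:30080753-30080969). These 4 regions, 157 to 550 bases long, shared identical stretches on the same strand. The longest was 41 bases between *Epha5* and *Unc5c*, then 40 bases between *Unc5c* and *Unc5d*, and 21 to 25 bases in the other pairs. How alike the regions are beyond these stretches was not measured, and whether reads there can be assigned to 1 place was not tested.

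A few of the genes named above, picked here after their values were seen, were compared by whether they held a replicated peak. *Plxna2*, *Epha6*, *Robo2* and *Efna5* held one and were 3.34-fold, 2.66-fold, 2.70-fold and 2.60-fold higher at Zt +6. The other tested members with one were *Slit3* (2.365-fold), *Sema3e* (2.19-fold), *Plxnc1* (2.18-fold), *Slit2* (1.92-fold) and *Epha10* (1.74-fold). *Plxnd1*, *Sema7a*, *Plxna4* and *Robo1*, at 3.23-fold, 2.79-fold, 2.71-fold and 2.68-fold, held none. *Sema6b* held none either. Apart from *Sema6b*, these genes without a peak were picked from the largest differences. These sets thus cannot show how peaks relate to the differences. In the promoter table of RefSeq (GRCm38.p6, 250 bases before to 50 after the start), 59 of the 69 members had an entry, and the E-box CACGTG bound by clock factors was present in 5 of them, *Epha8*, *Robo2*, *Sema3e*, *Sema4b* and *Sema6d*. Of the 38 tested members with an entry 7.89% held it, beside 12.5% of tested genes. The sequence reads the same on both strands, and a match is a description only.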

How the data were processed

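RNA-seq of cortex (9 mice in 4 groups) and ChIRP-seq peak lists of brain (5 lists) were used. Per the labels, tools named for the series were CASAVA 1.8.0, Bowtie2 2.0.0, MACS 1.4.2, TopHat2 2.0.5 and Cuffdiff 2.0.2, with build mm9. The authors deposited 1 FPKM value per group and gene, and their log2 fold changes and q-values were not used. The peaks carry the authors' ratio (fold over input), except replicate 2 of WT *116HG*, which has positions only.

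Genes whose mean over the groups reached 1 FPKM were compared on log2(FPKM + 1), which understates the change of low genes, and called at 1.5-fold with at least 1 FPKM in the higher group. Length trends are a lowess curve (span 0.3) on the log length of the longest GENCODE vM1 transcript. The members and lists were chosen with earlier results of these data known. Genes named in full are, per comparison, the 5 largest rises and 5 largest falls past the fold rule and the most abundant member of each family, and 3 genes per direction of each pathway list at Zt +6. Other marker lists, as summed FPKM in WT and *Snord116del* at Zt +6 and then at Zt +16, were neurons (689, 947, 564 and 771), oligodendrocytes (429, 661, 704 and 1018) and microglia (26.3, 52.2, 23.8 and 38.2). The steps were tested on simulated data. Python 3.11.15, pandas 2.3.3, statsmodels 0.14.6 and pysam were used.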

Additional observations from a re-analysis of the deposited data

How the results depend on the processing

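No paired analysis was possible because the table holds 1 value per group. Alternatives changed the pseudocount, the filter, the fold, the scale of the groups and the length trend, and, chosen after seeing the data, left out *Unc50* and *Unc5cl* or filtered on the WT groups alone; these last 2 left every count within 1.5 times and every median within 0.1.

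Counts of members higher at Zt +6 in *Snord116del* (35) became 14 with the groups scaled to the same median, 17 after quantile normalization and 5 with the length trend removed, and counts of members lower (0) became 2, 2 and 3. The median (1.04) became 1.31 with a pseudocount of 0.1, 0.84 without a filter, 0.41 scaled, 0.50 after quantile normalization and 0.0495 without the length trend. At Zt +16 the 3 higher became 8 with a pseudocount of 0.1, 1 at 2-fold, 1 scaled, 0 after quantile normalization and 1 without the length trend, and the median (0.24) became 0.37 with that pseudocount and turned to -0.0358, -0.0135 and -0.0269 under the last 3. Between the times in WT the 13 lower became 21 with a pseudocount of 0.1, 0 at 2-fold, 6 after quantile normalization and 4 without the length trend, and the median (-0.42) became -0.65, -0.21 without a filter, -0.24 and -0.18. Between the times in *Snord116del* the 2 higher became 1 at 2-fold and 7 without the length trend, the 32 lower 14 without it, and the median (-1.14) became -1.60 with a pseudocount of 0.1, -0.86 without a filter, -0.76 scaled, -0.67 after quantile normalization and -0.17 without the length trend. Without the length trend the sign turned for 12 of the 35 members past the fold rule at Zt +6 and 11 of the 34 between the times in *Snord116del*, and for none in the other 2 comparisons. Among the genes named in full these were *Plxnb1* (-0.20 at Zt +6 and 0.79 between the times in *Snord116del*), *Plxnc1* (-0.0188 and 0.04), *Sema5b* (-0.12 at Zt +6) and *Sema3e* (0.0678 between the times). Scaling shifted the median of all tested genes at Zt +6 from 0.57 to -0.06.

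The 12 members with a replicated *116HG* peak became 5 when the peaks had to overlap, 25 within 50 kb, 4 in the upper quartile of the fold over input, and between 21 and 60 with either replicate left out (21 without replicate 1, 60 without replicate 2). The fold rule on group values cannot show which differences exceed the spread between mice.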
